A study of Homo sapiens with 10 samples.

Results

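The genes that encode SR proteins, hnRNP proteins and the proteins of the U1 small nuclear ribonucleoprotein (U1 snRNP) were examined for sites of cleavage and polyadenylation in IMR-32 cells by poly(A) 3′-seq. IMR-32 is a human neuroblastoma cell line with amplified MYCN. The members were 36 named genes: 12 SR protein genes (SRSF1 to SRSF12), 2 Tra2 genes (TRA2A and TRA2B), 16 hnRNP genes, 3 U1 snRNP protein genes (SNRNP70, SNRPA and SNRPC) and 3 LUC7-like genes (LUC7L, LUC7L2 and LUC7L3). A peak was assigned to a member when its summit lay in the GENCODE 44 body of the gene or up to 600 bp past its 3′ end. By this rule 293 of the 178837 deposited peaks belonged to the members, out of 19061 protein-coding genes with a MANE Select transcript, of which 14721 held a peak.

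The libraries came from cells transduced with lentiviral shRNAs and selected with puromycin: 4 libraries with knockdown of CDK12 (shRNAs sh22 and sh98, 2 libraries each), 4 with knockdown of CDK13 (sh701 and sh704, 2 libraries each) and 2 with an shRNA against GFP as control. In poly(A) 3′-seq, the library is primed with oligo(dT) and sequenced from the poly(A) side, so that reads begin at or beside the cleavage site. The authors downsampled the libraries, which had been processed in 2 batches, merged all 10 and called peaks once with MACS2. The list therefore holds no value per library, per batch or per knockdown, and all values below describe the pooled cells without a test, with 8 of the 10 libraries from knockdown cells. The identity of the line was checked against its markers. All 12 adrenergic neuroblastoma markers had a peak at the transcript end or in the 3′ UTR, with PHOX2A the strongest (pileup of 114 reads), while PTPRC, CD3E, KRT5, PECAM1, HBB and PRRX1 had no peak. The PHOX2A pileup exceeds the 100 that a single strand allows, so it includes positions on both strands. Of the other markers of non-neuronal or mesenchymal cells, EPCAM, CDH5, COL1A1, FOSL1 and CD44 had terminal peaks of 13, 8, 14, 17 and 20 reads, and ALB had 1 intronic peak only.

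SR proteins bind exonic enhancers through RNA recognition motifs and recruit the splicing machinery through domains rich in arginine and serine, whereas many hnRNP proteins bind silencers and oppose exon inclusion. U1 snRNP pairs with the 5′ splice site and is also known to protect nascent transcripts from cleavage at poly(A) signals inside introns; the LUC7-like proteins associate with it. Many genes of these families regulate their own amount through poison exons, whose inclusion introduces a premature stop codon and directs the RNA to nonsense-mediated decay (NMD), or through introns and alternative poly(A) sites in the 3′ UTR. CDK12 and CDK13 phosphorylate the C-terminal domain of RNA polymerase II, and loss of CDK12 activity is known for the use of intronic poly(A) sites.

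The sites that the results turn on are shown first, as the GRCh38 sequence on the strand of the gene. The first set shows the poly(A) signal, in capitals, of leading sites in 3′ UTRs and at transcript ends: the tandem sites of SRSF3, the strongest site of several hnRNP genes, both sites of LUC7L2, the single site of each U1 snRNP gene and the end of TRA2A.
SRSF3 proximal site (chr6:36602268-36602297, plus strand): tgatAATAAAcctctaaacctgcccagcgg
SRSF3 middle site (chr6:36602895-36602924, plus strand): aattAATAAAatattagcataattgtgtat
SRSF3 distal site (chr6:36603407-36603436, plus strand): ttagATTAAAtcataatgcaacagtcttgt
HNRNPR (chr1:23309788-23309817, minus strand): tttcAATAAAactaaaaaatctattcaaaa
HNRNPU (chr1:244853382-244853411, minus strand): ttgcAATAAAaagaattcattttactcttg
HNRNPA1 (chr12:54284858-54284887, plus strand): gctgAATAAAtgtcttttttttaatgtgct
LUC7L2 upstream site (chr7:139423159-139423188, plus strand): cattATTAAActgtaacttgtctagtaaat
LUC7L2 end (chr7:139423427-139423456, plus strand): cccaAATAAAaacagtatatgtaaccaaca
SNRNP70 (chr19:49108579-49108608, plus strand): taaaAATAAAattaatttcctgttgatagt
SNRPA (chr19:40765351-40765380, plus strand): cggaATTAAAgtggctttttgaggtttggt
SNRPC (chr6:34774013-34774042, plus strand): aaatAATAAAcagcttggttcatttttcac
TRA2A end (chr7:23504778-23504807, minus strand): ctcaAATAAAagctaatttctttgaaaatg
The second set shows intronic sites. The first 2 carry a poly(A) signal, again in capitals, and in the last 4 the capitals mark the genomic bases just past the 3′ edge of the peak, which are A-rich (at least 7 A of 10) in TRA2B and SRSF4 and hold 5 A each in TRA2A and HNRNPL.
SRSF10 intron 2 (chr1:23978528-23978557, minus strand): cgttATTAAAgttaatccaaaaatggtaaa
LUC7L intron 9 (chr16:189520-189549, minus strand): ccttATTAAAaatcttcgcaaaggtcactt
TRA2A intron 1 (chr7:23522164-23522193, minus strand): gagaagtagaaagcaagagtGAAGTAGAAT
TRA2B intron 1 (chr3:185931621-185931650, minus strand): cggaagaatgaagaaaagaaATAAAAATGA
HNRNPL intron 6 (chr19:38842093-38842122, minus strand): aaaaaaaaaaaaaaaaatttTAACCACAAC
SRSF4 intron 1 (chr1:29177899-29177928, minus strand): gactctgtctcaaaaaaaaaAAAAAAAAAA

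Of the 293 peaks, 26 had their summit in the end window (200 bp upstream to 600 bp downstream of the MANE Select transcript end), 62 elsewhere in the 3′ UTR, 47 in coding exons, 2 in the 5′ UTR, 129 in introns and 27 in parts of the gene body outside the MANE transcript. The height of a peak is given as its pileup, the number of distinct read positions that cover the summit after extension of reads to 100 bp, recovered from the deposited fold and p-value. Duplicate reads at a position count as 1, so the pileup cannot exceed 100 on a single strand and flattens differences between strong sites. The members' median pileup was 33.5 reads in the end window, 38.5 in the 3′ UTR, 24 in coding exons and 15 in introns. Over the peaks of all genes the corresponding medians were 20, 18, 12 and 8, so the members stood higher in each class. The number of peaks in a member ranged from 2 in HNRNPH2 to 20 in LUC7L2 and LUC7L3.

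**Figure D1:**
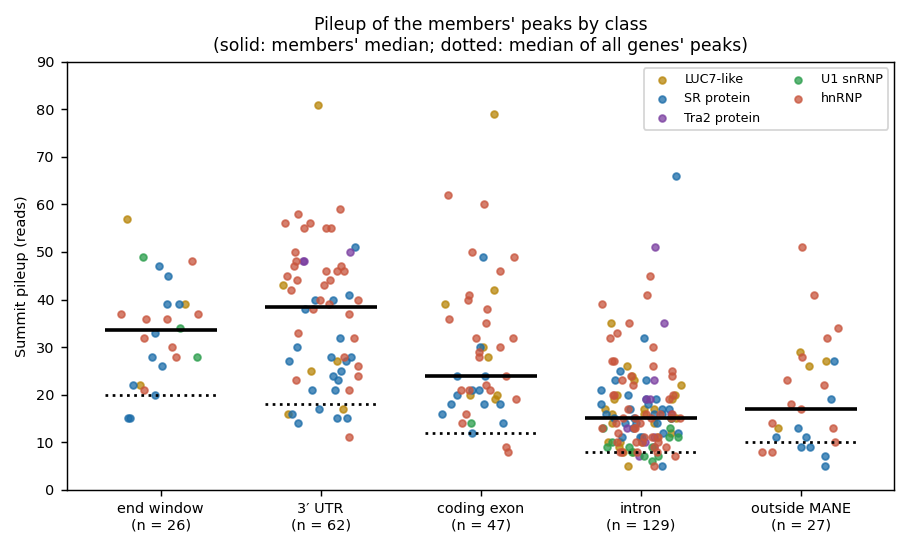
Summit pileup in reads (vertical axis) of each member's peak by the class of its summit, coloured by role, without the 2 peaks in a 5′ UTR; solid lines mark the members' median and dotted lines the median of all genes' peaks in the class. The medians of the members lie above those of all genes in all 5 classes, and the highest intronic point is SRSF11 with 66 reads.

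All 36 members had a peak at the transcript end or in the 3′ UTR (91.3% of all genes with a peak), referred to here as terminal peaks. The strongest terminal peak of a member had a median −log10 q-value of 29.6 and a median pileup of 45 reads, compared with 20.7 and 24 reads over all genes with such a peak, and 31 members stood above the median gene. Only 23 members, however, had a summit in the end window itself (78.0% of all genes with a peak). In 25 members several terminal peaks were found (48.5% of all genes with a peak), and 17 members had at least 3 (22.8%). By these counts fewer of the members had a peak at the annotated end, and more had tandem peaks along the 3′ UTR, than genes in general. A narrower comparison took the 9163 genes whose terminal peak was at least as strong as that of the weakest member. Of these, 7912 had a peak in the end window and 5419 had several terminal peaks. The median length of the 3′ UTR within the last exon was 1597 bp in the members and 1291 bp over all genes with a peak.

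The 13 members without a summit in the end window were SRSF3, SRSF10, SRSF11, TRA2A, TRA2B, HNRNPA0, HNRNPA2B1, HNRNPA3, HNRNPDL, HNRNPF, HNRNPK, HNRNPR and HNRNPU. In TRA2A, HNRNPA2B1, HNRNPDL and HNRNPK a broad terminal peak had its summit 243, 226, 211 and 257 bp upstream of the end, while its 3′ edge lay in the window, so that by the 3′ edge 27 members reached the annotated end (80.8% of all genes with a peak). In the other 9 members every terminal peak stopped short of it. Across all members, the strongest terminal peak lay more than 1 kb upstream of the MANE end in 18 genes (20.8% of all genes with a terminal peak). Of the 62 peaks in the 3′ UTR, 34 lay in the end window of another annotated protein-coding transcript of the same gene (35.8% of the 3′ UTR peaks of all genes). The window reaches from 200 bp upstream to 600 bp past an end, so such a peak need not stop at that end.

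**Figure D2:**
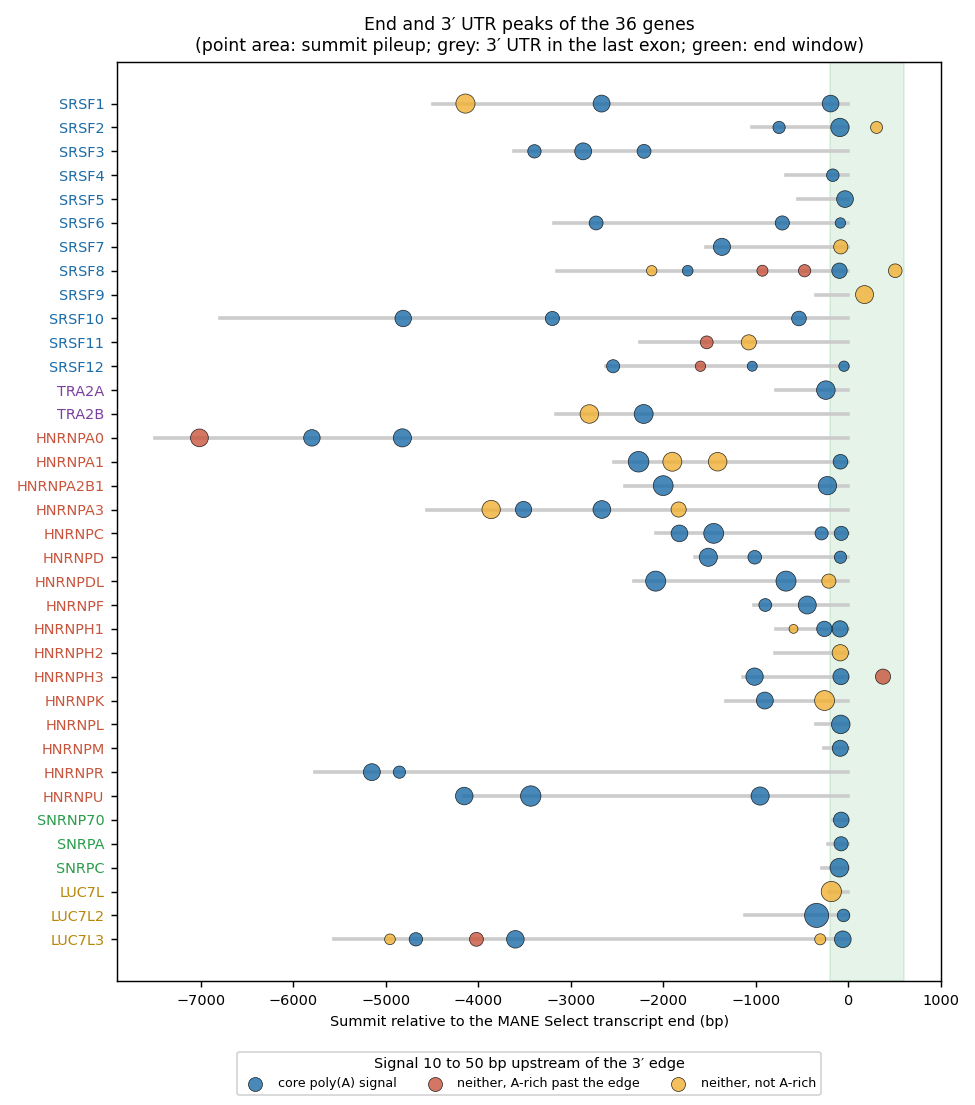
Terminal peaks of the 36 genes by the position of the summit relative to the MANE Select transcript end (horizontal axis, bp); the area of a point is its pileup, the colour says whether a core poly(A) signal lay 10 to 50 bp upstream of the 3′ edge and, if not, whether the bases past it were A-rich, and the grey line is the 3′ UTR within the last exon. In 18 genes the strongest terminal peak lies more than 1 kb to the left of the end, which holds for 20.8% of all genes with a terminal peak.

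A core poly(A) signal, AATAAA or ATTAAA, started 10 to 50 bp upstream of the 3′ edge of 62 of the 88 terminal peaks (70.5%), on the strand of the gene, compared with 57.1% of the terminal peaks of all genes. AATAAA was found at 50 of these sites and ATTAAA, where AATAAA was absent, at 12. The 3′ edge is the end of the peak in the direction of the gene and lies close to the cleavage site. In the 3′ UTR upstream of the end window the members' share was 69.4%, compared with 45.9% over all genes, and within the end window 73.1% compared with 69.7%. A peak was called A-rich when at least 7 of the 10 genomic bases past the 3′ edge were A. This held for 7 terminal peaks of the members (7.95%) and for 11.9% of those of all genes. The 3′ UTR peaks of these genes, weak and strong together, thus carried a core signal about as often as the peaks in their end windows. They include the broad peaks of TRA2A, HNRNPA2B1, HNRNPDL and HNRNPK whose 3′ edge lay in the window.

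Among the 25 members with several terminal peaks, the most distal one was the strongest by q-value in 6 (24.0%), the most proximal one in 12 (48.0%) and one between them in 7 (28.0%). Over all 7143 genes with several terminal peaks, the most distal one was the strongest in 46.0%, the most proximal in 38.1% and one between them in 15.9%. The distance between the outermost terminal summits of a member had a median of 1750 bp and reached 4896 bp in LUC7L3.

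The SR protein genes held 85 peaks, with 11 in end windows and 21 in 3′ UTRs, and their median strongest terminal pileup was 38.5 reads. SRSF3 had no peak near its annotated end but 3 tandem sites with a signal each, printed above, at 3394, 2867 and 2209 bp upstream of it. Their pileups were 25, 40 and 27 reads, and the proximal and the middle site lay in end windows of other coding transcripts. SRSF10, a splicing repressor when dephosphorylated, had sites at 4813, 3200 and 534 bp upstream with 38, 28 and 30 reads. All had AATAAA and lay in the end window of another coding transcript. SRSF11 (also called p54) had its peaks at 1531 and 1076 bp upstream with 23 and 32 reads and no core signal, and the first was A-rich. In each of these 3 genes no terminal peak reached the annotated end.

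Among the other SR protein genes, SRSF2 (SC35) had the strongest peak in an end window, with 47 reads and a −log10 q-value of 35.2 at its annotated end. A further SRSF2 peak of 20 reads lay 305 bp past the end. Both overlapped METTL23 on the opposite strand, and since the list has no strand it cannot be told which gene they belong to. SRSF8, a retrogene-like copy without introns, had peaks of 33 reads 96 bp upstream of its end and 26 reads 507 bp past it, and 4 weaker peaks of 15 to 21 reads along its 3′ UTR. SRSF1 (ASF/SF2), the founding SR protein, had 51 reads 4140 bp upstream of the end, 40 reads at 2668 bp and 39 reads at 192 bp, the first within a known intron of its 3′ UTR and without a core signal. SRSF6 and SRSF7 also had their highest terminal pileup upstream of the end, 28 reads at 714 bp and 41 reads at 1367 bp, against 15 and 28 reads in the end window. A further SRSF6 peak, with 27 reads at 2727 bp, was the strongest terminal peak of that gene by q-value. SRSF4, SRSF5 and SRSF9 had a single terminal peak each, with 22, 39 and 45 reads, and that of SRSF9, 175 bp past its end, overlapped GATC on the opposite strand. SRSF12 had 4, of which the farthest from the end, at 2543 bp, was the highest with 24 reads. Ranked by the strongest terminal peak of each gene, SRSF6, SRSF12 and SRSF11 stood lowest of all members, with −log10 q-values of 15.3, 15.6 and 16.4.

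TRA2A and TRA2B encode sequence-specific activators that bind GAA-rich exonic enhancers. TRA2A had a terminal peak of 48 reads ending 3 bp before its annotated end. TRA2B had its terminal peaks at 2800 and 2213 bp upstream of the end, with 48 and 50 reads, and none near the MANE end. Both lay in end windows of other coding transcripts, and only the second had a core signal.

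The hnRNP genes held 129 peaks, with 9 in end windows and 32 in 3′ UTRs, and a median strongest terminal pileup of 46.5 reads. HNRNPL, whose protein binds CA repeats, had the strongest end peak of the group, with 48 reads and a −log10 q-value of 54.0. In 5 genes every terminal peak stopped short of the annotated end. HNRNPA0 had peaks of 44, 38 and 46 reads at 7016, 5800 and 4822 bp upstream; the first was A-rich and the other ones carried AATAAA. HNRNPR had 40 and 21 reads at 5152 and 4854 bp, and HNRNPU, also known as scaffold attachment factor A, had 43, 58 and 46 reads at 4153, 3434 and 954 bp, all with AATAAA. HNRNPA3 had 4 peaks between 3862 and 1835 bp upstream with 32 to 47 reads, all 4 in places where NFE2L2 overlaps on the opposite strand. A core signal lay at 2 of them, but not at the one of 47 reads. HNRNPF had 23 and 45 reads at 898 and 444 bp. The strongest upstream sites of these 5 genes, those of HNRNPA3 included, thus had 40 to 58 reads.

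HNRNPA1, a core component of hnRNP particles, had peaks of 59, 50 and 48 reads at 2268, 1903 and 1413 bp upstream, and 30 reads at the annotated end. The upstream peaks all lie in introns of the 3′ UTR in some transcripts, and only the one of 59 reads has a core signal. In HNRNPA2B1 the higher site, with 55 reads, lay 2002 bp upstream, likewise in a 3′ UTR intron, and the peak that ended at the annotated end had 47. HNRNPC had 39, 55, 24 and 28 reads at 1826, 1456, 289 and 76 bp upstream, with a core signal at each. HNRNPD (AUF1), which binds AU-rich elements, had 46, 26 and 21 reads at 1514, 1012 and 85 bp. Its paralogue HNRNPDL had 56 reads at both 2083 and 674 bp and 28 reads at the last site. HNRNPK, a binder of C-rich RNA, had 40 reads at 903 bp and 55 reads in the peak that ended at the annotated end. HNRNPH1 had 11, 33 and 37 reads at 593, 259 and 90 bp, and HNRNPH2 and HNRNPM had a single terminal peak each, with 37 and 36 reads. HNRNPH3 had 42 reads at 1014 bp, 36 reads at the end and an A-rich peak of 32 reads 375 bp past it, and RUFY2 overlaps all 3 on the opposite strand.

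Among the U1 snRNP protein genes, SNRNP70 (U1-70K), SNRPA (U1-A) and SNRPC (U1-C), which have short 3′ UTRs of 164, 225 and 290 bp, each had a single terminal peak, 77, 78 and 97 bp upstream of the annotated end, with 34, 28 and 49 reads and a core signal. A single terminal peak was found in 11 members, the other 8 being SRSF4, SRSF5, SRSF9, TRA2A, HNRNPL, HNRNPH2, HNRNPM and LUC7L. SNRPC had the strongest end peak of the group, with a −log10 q-value of 51.8. U1-A is known to bind the 3′ UTR of its own transcript and to inhibit its polyadenylation.

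Among the LUC7-like genes, LUC7L2, which is recurrently lost in myeloid malignancies, had the strongest terminal peak of all 36 members. It lay 343 bp upstream of the end, with 81 reads and a −log10 q-value of 78.6, above 99.6% of genes with a terminal peak, and carried ATTAAA, while the end peak with AATAAA had 22 reads. LUC7L had 57 reads at its end, with a −log10 q-value of 54.6 and no core signal in the searched window. LUC7L3 had 6 terminal peaks, of 16 to 43 reads, the highest 3600 bp upstream of the end, compared with 39 reads at the end.

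Peaks in coding exons were present in 23 members (27.7% of all genes with a peak). A core signal lay upstream of 3 of the 47 (6.38%, compared with 10.2% over the coding peaks of all genes) and 10 were A-rich (21.3% compared with 38.7%). The highest was in LUC7L3, with 79 reads and a −log10 q-value of 65.2, above each of its terminal peaks. HNRNPA3 and HNRNPC had coding peaks of 62 and 60 reads and HNRNPM one of 40 reads with a −log10 q-value of 52.2. SRSF5 had a coding peak of 49 reads, with AATAAA and 4 A in the 10 bases past the edge. The strongest peak by q-value was not terminal in 10 members (31.6% of all genes with a peak and 25.1% of those with a terminal peak). In 2 of them, SRSF9 and HNRNPU, it lay in DYNLL1 and COX20 on the opposite strand.

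Introns held 129 peaks in 30 of the 34 members that have an intron (78.8% of such genes with a peak). SRSF1, SRSF2, SRSF6 and HNRNPDL, with 0.985, 1.33, 2.00 and 3.52 kb of intron, had none, and SRSF8 and HNRNPA0 have no intron. The members held 2.25 intronic peaks per 10 kb of intron, compared with 1.11 over all genes with a peak and 1.43 over the 9163 genes whose terminal peak was at least as strong as that of the weakest member. Such densities move with the amount of pre-mRNA and with depth, whose part was not tested. In 25 of the 129 peaks, in 13 members, the summit lay in an intron but the 3′ edge in an exon of the MANE transcript (19.4%, compared with 3.36% of the intronic peaks of all genes). Their median pileup was 24 reads, and that of the 104 peaks with both positions in an intron 14. Whether reads spliced at the junction placed these summits was not tested. With the 3′ edge also in the intron, the density was 1.81 per 10 kb in the members and 1.07 over all genes.

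**Figure D3:**
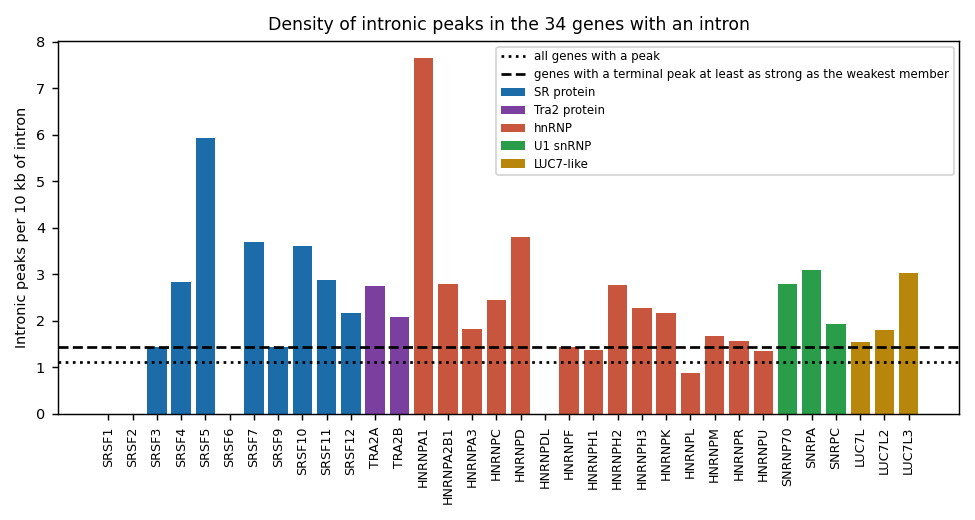
Intronic peaks per 10 kb of intron (vertical axis) in the 34 members with an intron, coloured by role; the dotted line is the density over all genes with a peak (1.11) and the dashed line that over genes with a terminal peak at least as strong as the weakest member's (1.43). HNRNPA1, SRSF5 and HNRNPD stand highest, and 4 genes have no intronic peak.

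The density was highest in HNRNPA1, at 7.64 per 10 kb, followed by SRSF5 with 5.94 and HNRNPD with 3.80. In HNRNPA1 and SRSF5 it rests on 2 peaks each, of 25 and 32 reads and of 20 and 18 reads, in 2.62 and 3.37 kb of intron, and both HNRNPA1 peaks had their 3′ edge in an exon. HNRNPD had 7 intronic peaks of 15 to 45 reads, 4 of them with the 3′ edge in an exon. With the 3′ edge also in the intron the density was 0 in HNRNPA1, 1.63 per 10 kb in HNRNPD and 5.94 in SRSF5, followed by SRSF7 with 3.70. Intron 1 of the members held 43 of the 129 peaks (33.3%) and 28.9% of their intron length, compared with 26.2% of peaks and 24.8% of length over all genes.

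Of the members' intronic peaks, 68 were A-rich (52.7%, 95% Wilson interval 44.1% to 61.1%), compared with 68.3% over the intronic peaks of all genes. The interval covers counting error only, and peaks of a gene are not independent. With the 3′ edge also in the intron the shares were 60.6% (63 of 104, 51.0% to 69.4%) and 69.3%, so part of the lower share of the members lay in the peaks that end in exons. The SR protein genes had 22 A-rich peaks of 30 (73.3%, 55.6% to 85.8%), of which SRSF4 alone, with its long intron 1, held 8, each followed by 8 to 10 A as in the sequence printed above; without SRSF4 the share was 66.7% of 21. With the 3′ edge in the intron the SR protein genes had 19 of 27 (70.4%). The U1 snRNP genes had 9 of 13 (69.2%, 42.4% to 87.3%), or 9 of 12 by the 3′ edge (75%), and none of their intronic pileups exceeded 15 reads. The hnRNP genes had 17 of 49 (34.7%, 22.9% to 48.7%), or 16 of 31 (51.6%) with the 3′ edge in the intron. HNRNPC had 14 of these 49 peaks, spread over its 57.1 kb of intron, and the share without it was 28.6% of 35. The Tra2 genes had 6 of 11 (54.5%, 28.0% to 78.7%), all with the 3′ edge in the intron. The LUC7-like genes had 14 of 26 (53.8%, 35.5% to 71.2%), or 13 of 23 by the 3′ edge (56.5%).

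**Figure D4:**
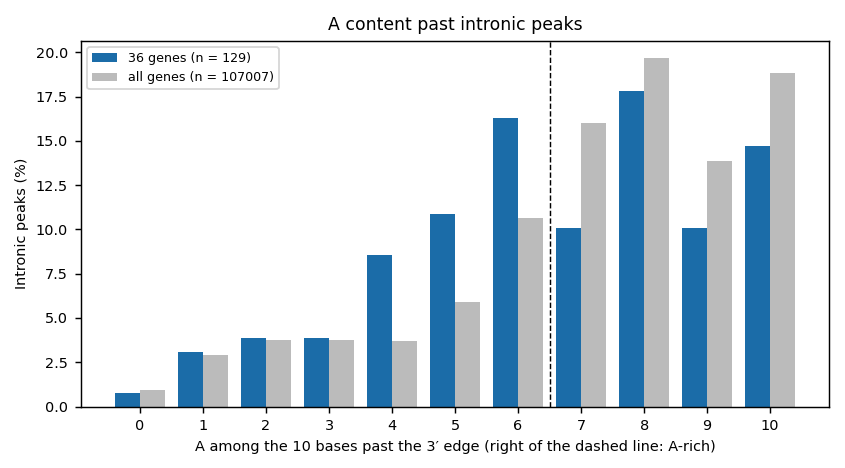
Share of intronic peaks in percent (vertical axis) by the number of A among the 10 genomic bases past the 3′ edge (horizontal axis), for the 129 intronic peaks of the members (blue) and the 107007 of all genes (grey). To the right of the dashed line lie the A-rich peaks, 52.7% of the members' and 68.3% of all genes'.

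An intronic peak with a core signal that was not A-rich was found in 9 of the 34 members with an intron (26.5%), compared with 33.6% of all genes with a peak and an intron. With the 3′ edge also in the intron it was found in 6 members (17.6%), compared with 33.0% of all such genes. By the summit there were 11 such peaks, or 8.53% of the members' intronic peaks, compared with 8.90% over all genes. The shares of genes take no account of intron length. It was 574 kb in the 34 members and 965131 kb in the 14369 genes with a peak and an intron. The strongest by q-value was in intron 2 of SRSF10, with 23 reads and a −log10 q-value of 17.0. LUC7L had one of 24 reads in its last intron, 606 bp upstream of the transcript end, and a weaker one of 8 reads in intron 1. The first lay in the end window of another coding transcript, with its 3′ edge 377 bp from the nearest annotated end. LUC7L3 had one of 14 reads in intron 2. The 3 U1 snRNP genes held no intronic site of this kind. SRSF5 had 2, both in end windows of other coding transcripts, with 3′ edges 480 and 86 bp from the nearest annotated end. HNRNPA2B1 had one in intron 8 with 22 reads. In HNRNPU, HNRNPD and HNRNPR, with 33, 27 and 8 reads, the 3′ edge lay in an exon.

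At 66 reads and a −log10 q-value of 49.2, the highest intronic pileup was that of SRSF11. Its summit lay beside an exon and its 3′ edge, followed by 7 A among 10 bases, inside the coding exon after intron 10. Next came TRA2A, described below, and HNRNPD, HNRNPL and HNRNPR with 45, 41 and 39 reads. The HNRNPL peak lay in intron 6, both by its summit and by its edge, 491 bp from an exon of a transcript labelled for NMD and within an exon of an annotated transcript with a retained intron. hnRNP L is known to regulate its own transcript through this intron. An unbroken run of A precedes the 3′ edge of this peak in the genome (sequence above), although only 5 A follow it.

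Poison exons were taken from the annotation, as exons of transcripts labelled for NMD that overlap no MANE exon, called NMD exons here. They can also be part of coding transcripts. Such exons exist in 24 members, and 8 of them (33.3%) had a peak with its summit within 200 bp of one, compared with 20.3% of all genes with a peak and such an exon. The 13 peaks included 6 that overlap a gene on the opposite strand: 4 in HNRNPU, inside COX20, and 2 in HNRNPA2B1, inside NFE2L3. Which gene these belong to cannot be told from the list, and HNRNPU counts among the 8 only through them. The members also held more intronic peaks per 10 kb of intron (2.25 compared with 1.11), and the part of this in the share was not tested. The other 7 lay in TRA2A, TRA2B, SRSF7, SRSF10, LUC7L, LUC7L3 and HNRNPA2B1, 1 in each. The exons at the peaks of TRA2B, SRSF7 and SRSF10 overlap no coding transcript, whereas those in TRA2A and LUC7L3 overlap 1 and those in LUC7L and HNRNPA2B1 overlap 2.

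The strongest was in TRA2A, at chr7:23522174-23522494, with 51 reads, an 18.2-fold enrichment and a −log10 q-value of 49.8. It covered most of a 301 bp exon in intron 1 (chr7:23522132-23522432), its 3′ edge fell inside the exon, and 5 of the 10 bases past it were A. A shorter annotated form of the exon, of 79 bp (chr7:23522354-23522432), holds the summit but not the 3′ edge. The peak was higher than the terminal peak of the gene, with 48 reads and a −log10 q-value of 45.7. TRA2B had the matching peak in its own intron 1, at chr3:185931631-185931942, with 35 reads and a −log10 q-value of 29.6. Its 3′ edge likewise fell inside the 276 bp exon (chr3:185931577-185931852), in sequence with 7 A in the 10 bases past it, as printed above. This TRA2B exon is known to be included by Tra2β itself. Neither peak had a core signal in the searched window, and the edge of each was preceded by purine-rich sequence. Both paralogues thus had their highest intronic peak in the NMD exon upstream of exon 2 of the MANE transcript.

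**Figure D5:**
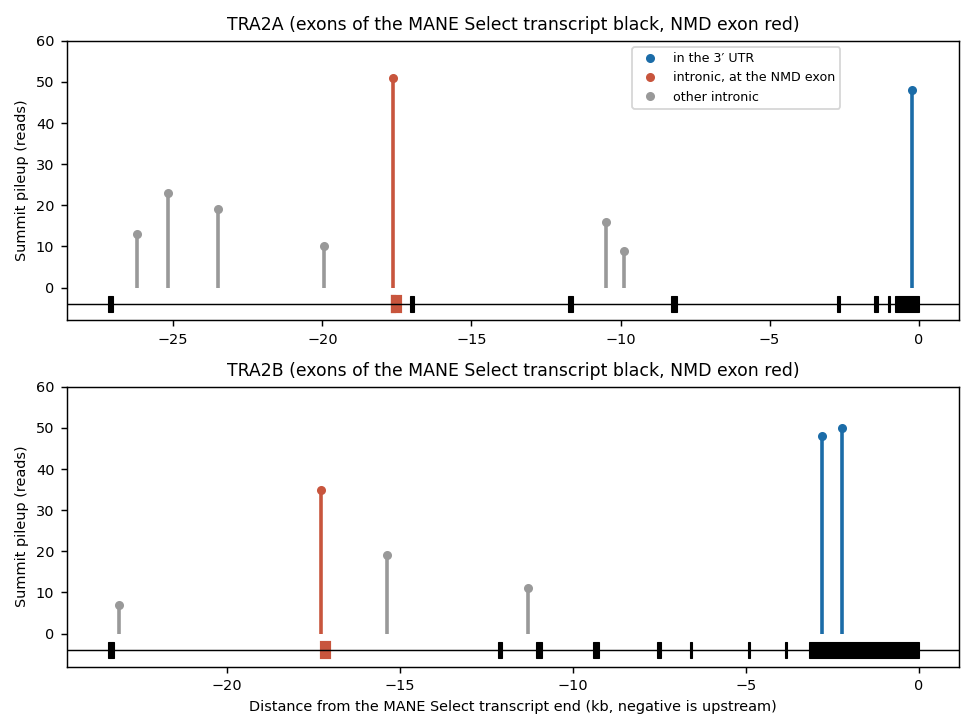
Summit pileup in reads (vertical axis) of all peaks of TRA2A and TRA2B by distance from the MANE Select transcript end (horizontal axis, kb), above a map of the MANE exons (black) and the NMD exon (red). The peak at the NMD exon has 51 reads in TRA2A, compared with 48 at its end, and 35 reads in TRA2B, compared with 48 and 50 in its 3′ UTR.

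The remaining peaks at such exons were lower. SRSF10 had 18 reads inside a 363 bp exon of intron 2 and SRSF7 had 19 reads 21 bp from a 276 bp exon of intron 3; both were A-rich, with 8 A each. LUC7L3 had 19 reads 42 bp from a 193 bp exon, and LUC7L had 8 reads with AATAAA 47 bp from a 70 bp exon. The HNRNPA2B1 peak of 23 reads in intron 1 lay 96 bp from a 36 bp exon that is also used by coding transcripts, where it separates the B1 from the A2 form of the protein, and its 3′ edge lay in an exon of the MANE transcript. Introns that transcripts other than the MANE one remove from the 3′ UTR, and that can create NMD targets when spliced, held 9 peaks in 5 of the 8 members that have them (38.2% of all genes with a peak and such an intron): SRSF1, SRSF2, HNRNPA1, HNRNPA2B1 and LUC7L3. The only one in SRSF2, with 21 reads, overlaps a gene on the opposite strand.

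Several peaks may belong to other genes. Of the 293, 67 also lay in another annotated gene, 32 of them in a gene on the opposite strand, in 8 members. The 27 peaks outside the MANE transcript lay mostly in such places. They included 5 peaks of SRSF9 in DYNLL1, the highest with 27 reads, 6 of HNRNPA2B1 in NFE2L3, up to 41 reads, and 4 of HNRNPU in COX20, the highest of which, with 51 reads and AATAAA, stood above the terminal peaks of HNRNPU by q-value (28.3 compared with 28.1). Peaks of 29, 27 and 13 reads counted for LUC7L2 lay in FMC1, on the same strand.

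The 41 related splicing genes (other hnRNP and SR-related genes, SR protein kinases and other snRNP proteins) held 415 peaks. Of these genes, 40 had a terminal peak, 27 had several and 31 had one in the end window, with a median strongest pileup of 34 reads. PCBP1, which binds poly(C), had the strongest terminal peak by q-value, with 94 reads and a −log10 q-value of 110, and its paralogue PCBP2 the highest pileup, with 97 reads. The weakest was that of the SR protein kinase gene CLK4, with 16 reads, and U2AF1, the gene for the small subunit of U2AF, had none but 4 intronic peaks. The related genes held 1.69 intronic peaks per 10 kb of intron, of which 68.6% were A-rich (162 of 236), and a peak at an NMD exon in 4 of 24 genes. Their other snRNP protein genes held 2.13 intronic peaks per 10 kb (median of the genes 1.97), and the 3 U1 snRNP genes, with 13 such peaks, 2.60 (median 2.79).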

How the data were processed

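For the 10 IMR-32 libraries, the deposited peak list was used. The authors trimmed the reads, mapped them to GRCh38 with STAR 2.5.1b, allowing up to 20 positions, downsampled and merged the libraries and called peaks with MACS2 2.1.1, with reads extended to 100 bp. In the deposited fold, a ratio, the summit pileup is set against the local background, the deposited p-value and q-value are given as −log10, and the deposited score is derived from the q-value and was not used. No depth per library is known.

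Pileups were recovered from fold and p-value (largest error 0.000168). Summits were placed in the end window, 3′ UTR, coding, intronic or outer part of the MANE Select transcript of GENCODE 44. AATAAA and ATTAAA were searched on the strand of the gene only, 10 to 50 bp upstream of the 3′ edge, and A counted in the 10 bases past it. According to the methods, the authors later removed peaks with none of 12 hexamers (both of these and single-base variants, some of which overlap) within 100 bp upstream and with a genomic stretch of 25 A, at most 3 mismatched, within 50 bp downstream. By these criteria the deposited list still holds such peaks, 7 of them intronic in the members; they were kept, and removed in an alternative. Named were the members without an end peak, with the strongest end peak of their role, with several end peaks, with intronic core signals, with peaks at NMD exons or with the highest intronic density, and the extremes of the related genes; other genes were named to account for all members, and 1 intronic site is not reported here. The members and lists were chosen with earlier results of these data known. Shares have 95% Wilson intervals; no test was made. Steps were tested on simulated data with Python 3.11.15, numpy 2.4.6, pandas 2.3.3, scipy 1.17.1, pysam 0.24.0 and matplotlib 3.10.9.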

Additional observations from a re-analysis of the deposited data

How the results depend on the processing

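The list pools all libraries, so every value describes 1 merged sample and leaving out a replicate was not possible. No paired analysis was possible because values per library are missing from the pooled list. Pileups level off at strong sites, and peaks in overlapping genes of opposite strands cannot be assigned.

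When only peaks with a −log10 q-value of 20 or more were kept, the members had 13 end peaks in place of 26, 8 intronic peaks in place of 129, 37.5% of them A-rich in place of 52.7%, and 3 peaks at NMD exons in place of 13; the cause was not tested, beyond the smaller number of peaks left by construction. Counting the ends of all protein-coding transcripts gave 70 end peaks. The A-rich share was 69.0% at 6 A and 42.6% at 8 A. Peaks at NMD exons numbered 26 within 500 bp of the exon and 7 without those in a gene of the opposite strand, the latter an alternative chosen after seeing the data. Placing peaks by their 3′ edge, also chosen after seeing the data, gave 29 end peaks, 109 intronic peaks, 57.8% A-rich and 13 at NMD exons. Removing the A-stretch peaks without a hexamer left 122 intronic peaks, 50% of them A-rich. In the remaining alternatives, counts stayed within 1.5 times their main value and the A-rich share within its interval.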

Other observations

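Processed pseudogenes of the members, from which reads of the parent gene can be misplaced, were counted by their annotated names. GENCODE 44 lists 151 such pseudogenes of 20 members, of which 13, with 7 parent genes, held a peak. HNRNPA1 had 74 of them, 5 with a peak, HNRNPC had 9, 3 with a peak, and SNRPC had 18, 1 with a peak. HNRNPKP3, annotated over 148665 bp, held 25 peaks, and the other 12 held 1 each. The highest pileup on any of them was 16 reads, on HNRNPCP2, HNRNPKP3 and SNRPCP3, and those of HNRNPA1 reached at most 10 reads. Reads could map to up to 20 positions, and how many reads were shared between a gene and its pseudogenes was not tested.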
